A study of Mus musculus with 18 samples.

Results

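Tbr1 and the genes of 5 proteins reported to bind TBR1 (Cask, Bcl11a, Foxp1, Foxp2 and Foxp4) were followed across sorted cortical neurons of the mouse. The 6 genes were taken by name from a table of read counts for 24015 genes, and all 6 were present and passed the filter on low counts in every comparison. The study sequenced RNA of 12 libraries, each made from about 25000 tdTomato-positive cells sorted from mouse cortex at postnatal day 5. The 3 groups of 4 libraries were Tbr1 null layer 6 neurons (labelled Tbr1 Layer 6 Null, whereas the design text of the series speaks of a constitutive null), wild-type (WT) layer 5 neurons and WT layer 6 neurons. The remaining 6 of the 18 samples are chromatin immunoprecipitation samples of P2 cortex and were not analysed here. The sources used here do not give the allele, the driver of tdTomato, the strain of the sorted mice or whether animals were pooled.

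TBR1 belongs to the T-box transcription factors, is made by deep-layer glutamatergic neurons and is best known for setting the corticothalamic identity of layer 6. CASK is a membrane-associated guanylate kinase of synapses that also enters the nucleus and acts as a coactivator of TBR1. BCL11A, also called CTIP1, is a zinc-finger factor of cortical projection neurons and belongs to the BAF family of chromatin remodelling complexes. FOXP1, FOXP2 and FOXP4 are forkhead repressors that bind DNA as dimers with one another. FOXP2 is a marker of layer 6 corticothalamic neurons, whereas FOXP1 is expressed more widely across projection neurons. Per RefSeq (GRCm38.p6), Tbr1 lies on chromosome 2, Foxp1 and Foxp2 on chromosome 6, Bcl11a on chromosome 11, Foxp4 on chromosome 17 and Cask on the X chromosome.

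The Tbr1 and Bcl11a promoters are shown because each holds a match to a short motif bound by the product of the other gene. The motifs were chosen after the promoter sequences had been seen, so the matches were selected from the same letters. They are no test of a link between Tbr1 and Bcl11a. The RefSeq promoter table held an entry for 4 of the 6 members, and the 250 bases before each annotated start were searched on both strands for 3 motifs. These were GTGTGA (a shortened core of the T-box half-site), TGACCA (bound by BCL11A) and GTAAACA (bound by forkhead proteins). No match overlapped another in these promoters. The bases around GTGTGA that complete the half-site were not required. Capitals mark the matches, both of which are reverse complements of the motif as spelled here. The Tbr1 promoter is given for chr2:61804203-61804452 and the Bcl11a promoter for chr11:24080445-24080694, both on the plus strand of GRCm38.p6, 5′ to 3′.
Tbr1: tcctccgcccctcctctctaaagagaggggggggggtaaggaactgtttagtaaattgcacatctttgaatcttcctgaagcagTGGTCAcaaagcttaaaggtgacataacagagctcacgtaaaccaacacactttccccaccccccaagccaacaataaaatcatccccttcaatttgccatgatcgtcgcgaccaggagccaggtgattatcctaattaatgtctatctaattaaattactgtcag
Bcl11a: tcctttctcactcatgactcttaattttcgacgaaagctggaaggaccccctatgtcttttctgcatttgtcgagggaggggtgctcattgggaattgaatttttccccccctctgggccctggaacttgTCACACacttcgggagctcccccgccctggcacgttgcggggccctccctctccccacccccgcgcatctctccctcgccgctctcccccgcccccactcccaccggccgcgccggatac

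The Tbr1 promoter held 1 match to the BCL11A motif, 166 to 161 bases before the start. The Bcl11a promoter held 1 match to the T-box core GTGTGA, 120 to 115 bases before the start. Among 32851 promoter stretches of the same length, 11.4% held the BCL11A motif, 12.3% the T-box core and 3.17% the forkhead motif. The 3 Foxp1 stretches and the Foxp4 stretch held none of these letters. A match is a description of the sequence, and binding at these matches was not analysed here.

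Library totals were 41091165 to 47540669 counts in the null layer 6 libraries, 27465597 to 39703820 in those of WT layer 5 and 32982957 to 54899002 in those of WT layer 6. The labels do not tie replicates to separate animals, and each p-value therefore reflects no more than the spread among these libraries, which may be technical. The library codes in the labels of layer 6 share a digit in pairs, 1 with 2 and 3 with 4, and these libraries were also closest in their counts. Whether the libraries of a pair share their animals is not stated in the labels. Libraries of layer 5 were closest in the pairs 1 with 3 and 2 with 4, and each of these pairs spans sequencing batches B and C. The chi-square of counts per degree of freedom within pairs was 9.003 and 10.8 in null layer 6, 1.33 and 1.40 in WT layer 5, and 3.26 and 5.18 in WT layer 6, where sampling noise alone gives about 1. The X-inactivation transcript Xist stood at 262 to 299 CPM in null layer 6 and 39.5 to 41.1 CPM in WT layer 5. In WT layer 6 it was at 0.458 and 0.448 CPM in replicates 1 and 2, against 289 and 287 CPM in replicates 3 and 4. Summed Y-linked genes were at 0.0440 to 0.261 CPM in null layer 6 and 114 to 128 CPM in WT layer 5. In WT layer 6 they were at 188 and 194 CPM in replicates 1 and 2, against 0.0654 and 0.127 CPM in replicates 3 and 4. By these genes the low-Xist WT replicates 1 and 2 read as male. The null libraries and WT layer 6 replicates 3 and 4 read as female, and WT layer 5 libraries hold both Xist and Y-linked reads. Null against WT layer 6 thus differs in sex for WT replicates 1 and 2, and the part of sex in the member values was not tested. Summed over 10 astrocyte markers, null layer 6 libraries had 1031 to 1102 CPM, WT layer 5 libraries 5197 to 5215 CPM and WT layer 6 libraries 852 to 982 CPM. Markers of layer 5 subcerebral neurons summed to 501 to 521 CPM in WT layer 5 and 1024 to 1091 CPM in WT layer 6. Of these 10 markers, 7 were called lower and 3 higher in WT layer 5 (threshold given below). Over all genes tested, 43.4% were called lower and 42.2% higher there. Of 12 layer 6 corticothalamic markers, a list that holds Tbr1 and Foxp2, 1 was higher and 6 were lower in null than in WT layer 6. In that comparison 4 of 10 layer 5 subcerebral markers were called higher and 1 lower, and 5 of 10 astrocyte markers higher and 1 lower. The shares over all genes tested were 7.31% higher and 6.86% lower. Among 10 markers each, microglia had 0 called and vascular cells 0 higher and 2 lower. Pan-neuronal genes and callosal and upper-layer markers, 10 each, had 2 higher and 1 lower in each list. Of 9 oligodendrocyte lineage markers tested, 2 were higher and 4 lower. Of 9 dividing progenitor markers tested, 4 were higher and 0 lower, with sums of 692 to 719 CPM in null against 646 to 662 CPM in WT layer 6. The part of such cells in the member values was not tested. The layer 5 label is used as the name of the libraries only.

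Levels are given as CPM, which are counts brought to a common library total, with totals scaled by TMM, a method that equalises the bulk of genes between libraries. They compare 1 gene between libraries and not 1 gene with another. Differences are log2 fold changes with standard errors from edgeR's quasi-likelihood test, fitted on all genes of the 2 groups compared. A gene is called at a Benjamini-Hochberg adjusted p under 0.05 over all genes tested.

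**Figure D1:**
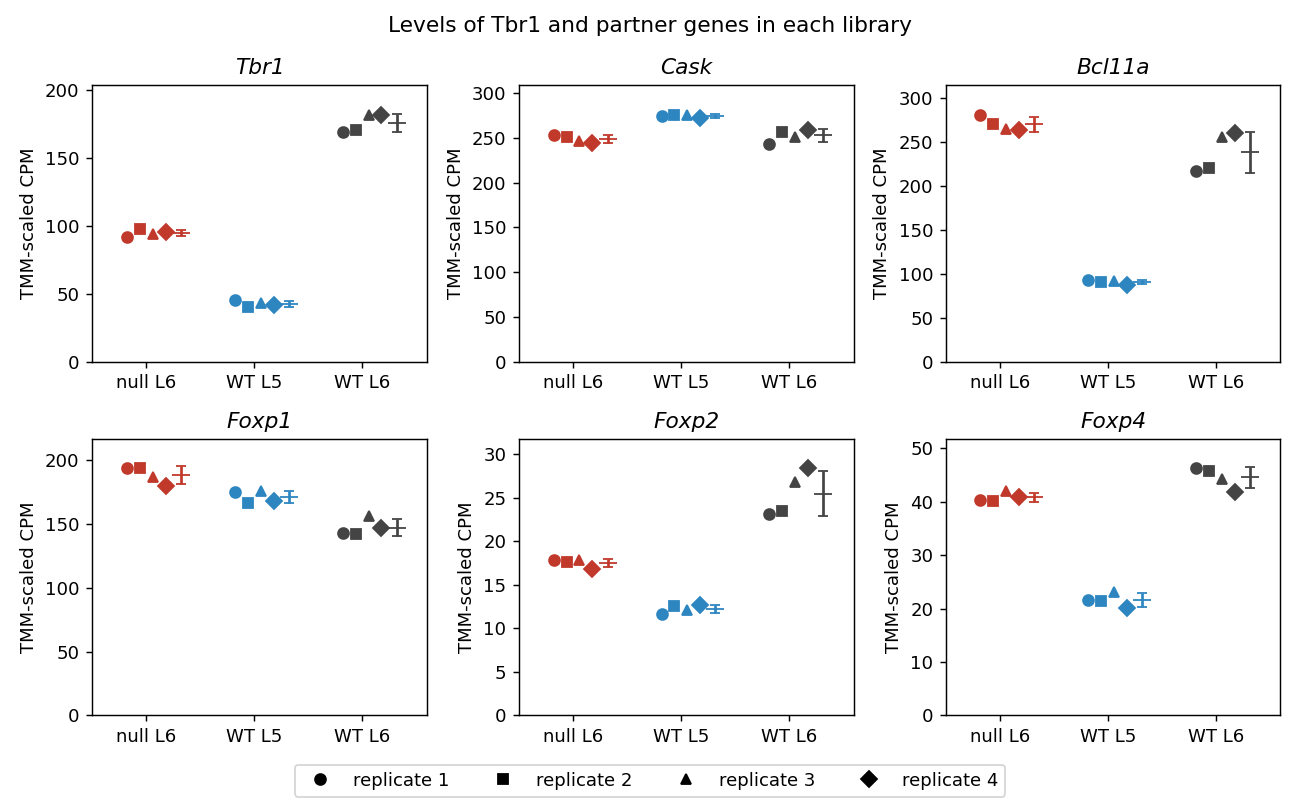
TMM-scaled CPM (linear axis from 0) of the 6 genes in null layer 6, WT layer 5 and WT layer 6. Points are libraries, shapes are replicates, and bars give the mean ± SD of 4 libraries. Tbr1 and Foxp2 are highest in WT layer 6, Foxp1 in null layer 6 and Cask in WT layer 5.

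In Tbr1 null layer 6 neurons Foxp2 was lower and Foxp1 higher than in WT layer 6, while the interval of Cask was narrow and held no difference. Tbr1 itself was at 91.6, 97.4, 94.4 and 95.5 CPM in null layer 6 libraries, against 169, 171, 181 and 182 CPM in WT layer 6 libraries. The groups are far apart relative to their spread, and the remaining transcript is roughly even over the null libraries. The log2 fold change was -0.89 ± 0.035, with an adjusted p of 8.53e-09 (edgeR). Because the deleted part of the gene is not stated, the count does not show whether the remaining reads come from inside or outside it. Of the 6 genes, Tbr1 and Foxp2 were called lower, Foxp1 was called higher and 3 were not called. Among all 14588 genes tested, 14.2% were called (7.31% higher and 6.86% lower). Tbr1 is the gene made null, and the members were chosen with earlier results known, so the member count is no test against that share. With the paired libraries summed, 2 against 2, the number of genes called fell to 479, against 2068. There Tbr1, Foxp2 and Foxp1 kept their calls. Each library is a bulk of sorted cells, so fewer cells of a type and less RNA per cell cannot be told apart.

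Foxp2, the forkhead member listed as a corticothalamic marker, had 17.8, 17.6, 17.8 and 16.9 CPM in null layer 6 libraries, against 23.2, 23.5, 26.8 and 28.4 CPM in WT layer 6 libraries. Every null library lay below every WT library, and the WT libraries were the more spread of the groups, with replicates 3 and 4 above 1 and 2. Foxp2 fell by 31.3%, a log2 fold change of -0.54 ± 0.068 (edgeR adjusted p of 0.000132). The size of this change was above that of 93.7% of the genes tested. Without the WT replicates 1 and 2, whose Xist was under 1 CPM, it was -0.66 ± 0.059.

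Foxp1 moved the other way. It had 194, 194, 187 and 179 CPM in null layer 6 libraries, against 143, 142, 156 and 147 CPM in WT layer 6 libraries. Again no null library reached into the WT range. Its log2 fold change was 0.36 ± 0.038 (edgeR adjusted p of 3.24e-05), a rise of 28.1%, larger in size than that of 87.5% of the genes tested. The difference was 0.31 ± 0.041 without the WT replicates 1 and 2.

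Foxp4, the third forkhead member, was not called. It had 40.3, 40.2, 42.0 and 40.9 CPM in null layer 6 libraries, against 46.3, 45.7, 44.4 and 41.9 CPM in WT layer 6 libraries. The groups overlapped at 1 library, since null replicate 3 stood at 42.0 CPM and WT replicate 4 at 41.9 CPM. The log2 fold change was -0.13 ± 0.042, with a 95% interval of -0.22 to -0.04 before any adjustment and an adjusted p of 0.0662 (edgeR). Leaving out WT replicate 4 gave -0.16 ± 0.043 and an adjusted p of 0.037 in the same edgeR test. Leaving out the low-Xist WT replicates 1 and 2 gave -0.08 ± 0.050 and an adjusted p of 0.405 (edgeR).

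Bcl11a lay close to the threshold, and its value rested on which WT libraries were used. Null layer 6 libraries had 281, 271, 264 and 263 CPM, and WT layer 6 libraries had 217, 220, 256 and 260 CPM. The groups did not overlap, a feature shared by 19.9% of the genes tested, but WT replicates 3 and 4 came within a few CPM of the lowest null libraries and replicates 1 and 2 did not. The log2 fold change was 0.18 ± 0.057, with an adjusted p of 0.0523 (edgeR). It was 0.07 ± 0.038 (edgeR adjusted p of 0.343) without WT replicates 1 and 2, the libraries with Xist at 0.458 and 0.448 CPM, and the part of that library difference in the result was not tested further. Without WT replicate 3 it was 0.22 ± 0.059 (edgeR adjusted p of 0.0317), and without WT replicate 4 it was 0.23 ± 0.055 (edgeR adjusted p of 0.0182). DESeq2 called it at 0.18 ± 0.058, with an adjusted p of 0.014.

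Cask had 254, 252, 247 and 244 CPM in null layer 6 libraries, against 244, 257, 251 and 259 CPM in WT layer 6 libraries. These ranges lie almost on top of each other. The log2 fold change was -0.02 ± 0.031, with a 95% interval of -0.09 to 0.05 and an adjusted p of 0.712 (edgeR). Cask is X-linked, and it had 244 and 257 CPM in the low-Xist WT libraries and 251 and 259 CPM in the other WT libraries, which overlap.

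**Figure D2:**
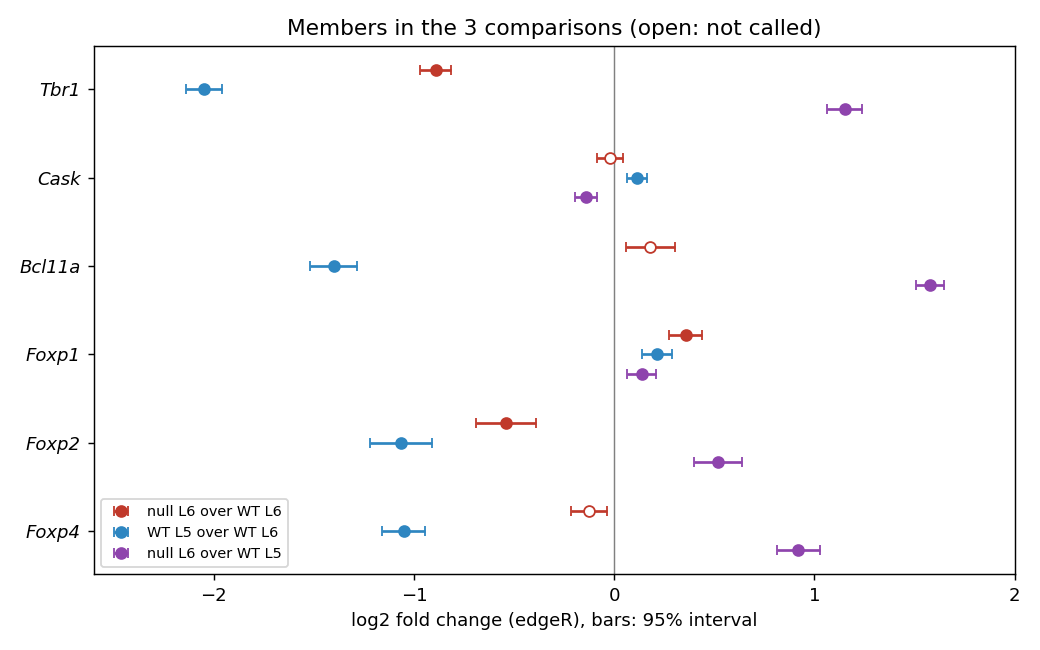
Log2 fold changes from edgeR for the 6 genes in null over WT layer 6, WT layer 5 over WT layer 6 and null layer 6 over WT layer 5, with 95% intervals before adjustment. Filled points were called and open points were not. For null over WT layer 6 the values run from -0.89 for Tbr1 to 0.36 for Foxp1.

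The balance between the forkhead members was read within each library as the count of Foxp2 per count of Foxp1, a ratio that does not depend on library scaling. It was 0.0922, 0.0910, 0.0955 and 0.0940 in null layer 6 libraries, 0.0668, 0.0755, 0.0688 and 0.0755 in WT layer 5 libraries, and 0.162, 0.166, 0.172 and 0.193 in WT layer 6 libraries. The 3 ranges are separate, with WT layer 6 highest and WT layer 5 lowest. The mean log2 ratio was -3.42 ± 0.030 in null and -2.53 ± 0.113 in WT layer 6 (SD, n = 4 each). That is a difference of -0.89 with an exact permutation p of 0.0286, two-sided. The layer 5 ratio differed from WT layer 6 by -1.27 and the null ratio from WT layer 5 by 0.38, each with an exact permutation p of 0.0286. This is the smallest p that 4 against 4 libraries allow, and it stayed at 0.0286 after adjustment over the 3 comparisons. In the comparisons with WT layer 6 the p adds no evidence to the single-gene results. Foxp2 was lower and Foxp1 higher in every null and every WT layer 5 library than in WT layer 6, so the ratios had to separate. With the paired libraries summed, 2 against 2, the difference between null and WT layer 6 was again -0.89, and no test was made at that level. Foxp4 counts per Foxp1 count were 0.207 to 0.228 in null layer 6, 0.119 to 0.132 in WT layer 5 and 0.284 to 0.324 in WT layer 6, again with no overlap. Between null and WT layer 6, Foxp4 itself overlapped and was not called, whereas Foxp1 was called higher. The separation of this ratio there does not show a change of Foxp4.

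**Figure D3:**
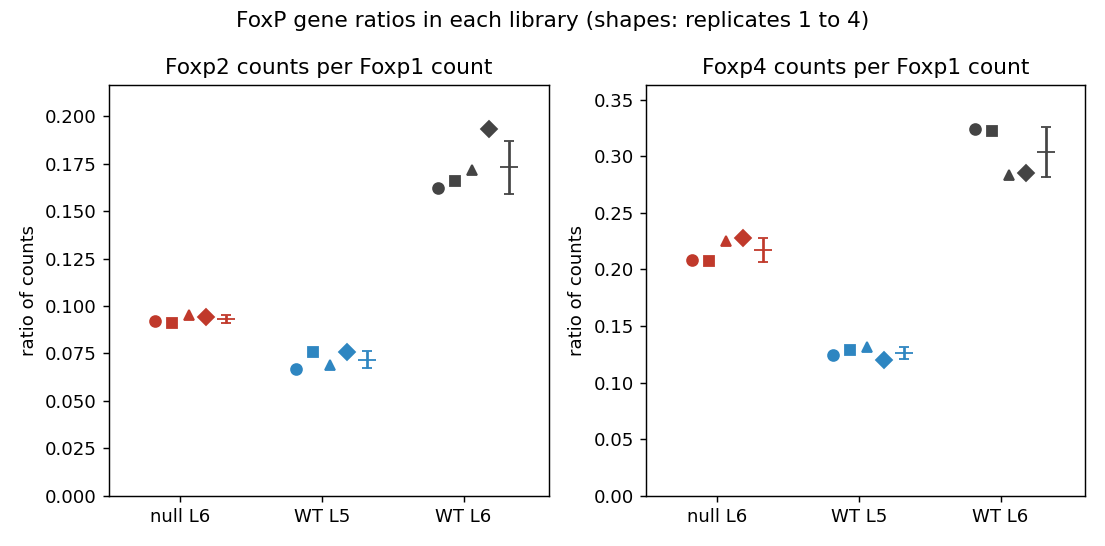
Counts of Foxp2 (left) and Foxp4 (right) per count of Foxp1 in each library, on linear axes from 0, with the mean ± SD of 4 libraries. In both panels the groups are separate, although Foxp4 itself was not called between null and WT layer 6. WT layer 6 is highest, null layer 6 lies in the middle and WT layer 5 is lowest.

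Between the WT layers, 4 members were lower and 2 slightly higher in layer 5, all called and with groups that did not overlap. This comparison is wide: 85.5% of 14927 genes tested were called and 81.2% had groups that did not overlap, so a call by itself says little and the size of the difference is the informative value. Layer 5 libraries belong to sequencing batches B and C and all layer 6 libraries to batch A, so layer and batch cannot be told apart. Of the 10 markers each of astrocytes, the oligodendrocyte lineage, microglia and vascular cells, all were higher in layer 5. The sums were 1117 to 1128 CPM in WT layer 5 against 260 to 273 CPM in WT layer 6 for the oligodendrocyte lineage, 307 to 318 against 94.3 to 107 CPM for microglia and 809 to 827 against 368 to 379 CPM for vascular cells. The part of these cells in the layer differences was not tested.

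Tbr1 had 45.7, 40.1, 43.1 and 41.5 CPM in WT layer 5 libraries, against the 169 to 182 CPM of WT layer 6, with no overlap. The log2 fold change was -2.05 ± 0.043 (edgeR adjusted p of 5.29e-15), larger in size than that of 92.8% of the genes tested. Bcl11a was next, at 92.7, 90.4, 91.8 and 86.9 CPM in WT layer 5 libraries against 217 to 260 CPM in WT layer 6. Its log2 fold change was -1.40 ± 0.055 (edgeR adjusted p of 5.56e-12). The layer 5 libraries were far more alike than those of WT layer 6, with a coefficient of variation of 2.79% against 9.65%.

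Foxp2 and Foxp4 differed between the layers by nearly the same factor. Foxp2 had 11.7, 12.6, 12.1 and 12.7 CPM in WT layer 5 libraries, against 23.2 to 28.4 CPM in WT layer 6. Foxp4 had 21.6, 21.4, 23.2 and 20.1 CPM in WT layer 5 libraries, against 41.9 to 46.3 CPM in WT layer 6. Neither gene had overlapping groups. The log2 fold changes were -1.07 ± 0.072 for Foxp2 and -1.05 ± 0.050 for Foxp4, with edgeR adjusted p-values of 2.88e-09 and 4.29e-11.

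Foxp1 and Cask were the members that were higher in layer 5, by small amounts. Foxp1 had 175, 166, 176 and 168 CPM in WT layer 5 libraries, against 142 to 156 CPM in WT layer 6. Its log2 fold change was 0.21 ± 0.034 (edgeR adjusted p of 3.5e-05), with only 19.3% of the genes tested showing a smaller change. Cask had 274, 276, 276 and 272 CPM in WT layer 5 libraries, against 244 to 259 CPM in WT layer 6. That was a log2 fold change of 0.11 ± 0.024 (edgeR adjusted p of 0.000458), with 10.3% of genes below it in size. With layer 5 libraries of batch B alone the values were 0.21 for Foxp1 and 0.12 for Cask, and with batch C alone 0.22 and 0.11. The close pairs of layer 5 libraries span both batches, so these values may not be independent of each other. Cask was 0.21 under upper-quartile scaling and 0.07 with no filter on low counts.

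Null layer 6 libraries were also set against WT layer 5, which shares its libraries with the comparisons above and differs in genotype, layer and batch at once. All 6 members were called and had groups that did not overlap, where 84.3% of 15013 genes were called (42.4% higher and 41.8% lower) and 79.9% did not overlap. Tbr1 in the null was still higher than in WT layer 5, at 91.6 to 97.4 against 40.1 to 45.7 CPM, a log2 fold change of 1.15 ± 0.041. Bcl11a differed most, by 1.58 ± 0.033, and Foxp4 by 0.92 ± 0.050. Foxp2 had 16.9 to 17.8 CPM in null layer 6 and 11.7 to 12.7 CPM in WT layer 5, a difference of 0.52 ± 0.056. Cask differed by -0.14 ± 0.026 and Foxp1 by 0.14 ± 0.033 on the same log2 scale. The edgeR adjusted p was 0.00138 or less for these 6 values. The Foxp1 call was lost under upper-quartile scaling, at 0.05 ± 0.031 with an adjusted p of 0.163 (edgeR), and Cask was -0.23 there.

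From high to low, Tbr1 and Foxp2 thus ran WT layer 6, null layer 6 and WT layer 5, with each step called. Foxp4 had the same order with the first step not called. Bcl11a ran null layer 6, WT layer 6 and WT layer 5, with the first step not called. Foxp1 ran null layer 6, WT layer 5 and WT layer 6, but its first step was not called under upper-quartile scaling and had the reverse sign in the authors' scores. Cask was highest in WT layer 5 by CPM, where null and WT layer 6 did not differ beyond their spread. Its authors' scores were 160 to 163 in null layer 6, 171 to 174 in WT layer 5 and 164 to 175 in WT layer 6. By these scores the WT layers overlapped, and null layer 6 lay just below WT layer 6.

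The authors' second deposited table holds normalized whole-number scores, and there Foxp1 looks less even. Its scores were 234, 204, 170 and 175 in null layer 6, 197, 198, 191 and 196 in WT layer 5, and 141, 145, 153 and 148 in WT layer 6. Null replicate 1 is the highest library by scores, whereas by CPM replicates 1 and 2 are level at 194. The null libraries lie above WT layer 6 in both tables, but the scores of null and WT layer 5 overlap and the CPM values do not. Bcl11a kept its pattern, with scores of 300 to 312 in the null layer 6 libraries, 102 to 108 in those of WT layer 5 and 246 to 295 in those of WT layer 6. The scores of Foxp2, 12 to 13 in null layer 6, 8 in every WT layer 5 library and 17 to 21 in WT layer 6, are coarse because of rounding.

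**Figure D4:**
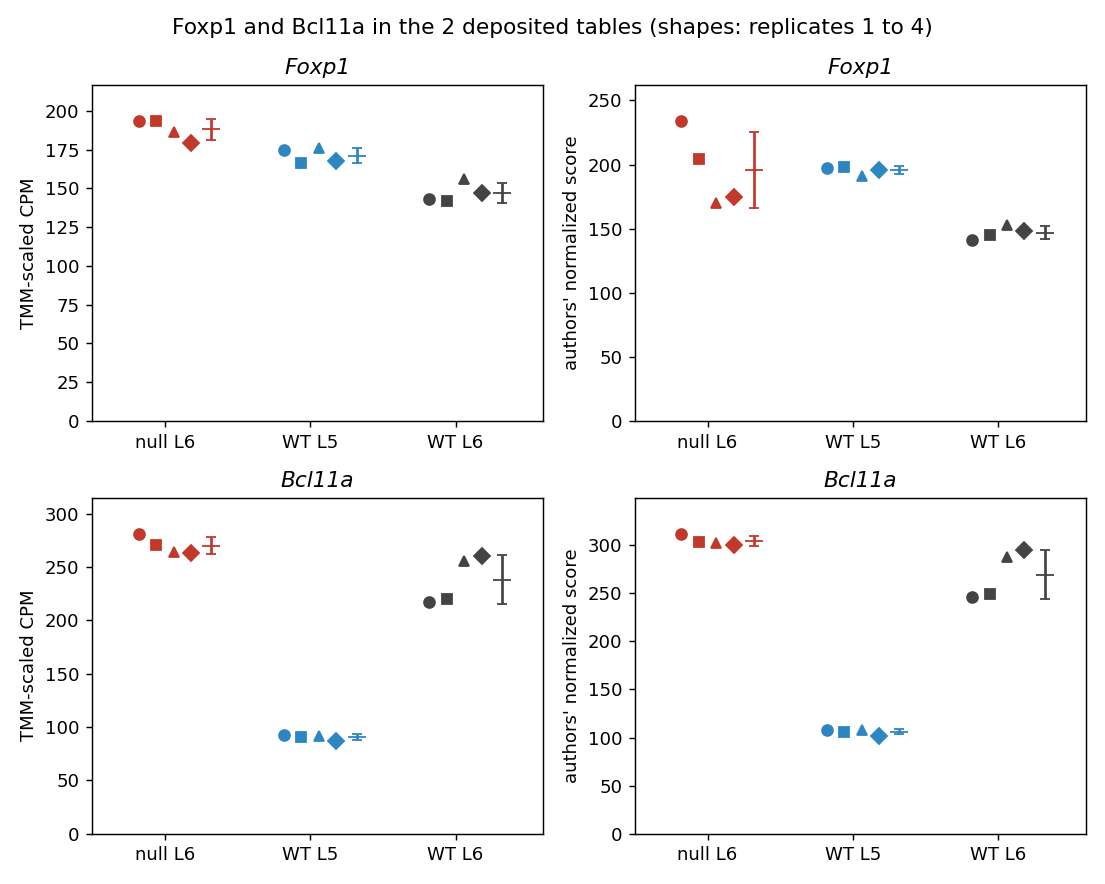
Foxp1 (top) and Bcl11a (bottom) in each library as TMM-scaled CPM (left) and as the authors' normalized score (right), on linear axes from 0 with the mean ± SD of 4 libraries. Foxp1 in null layer 6 has an SD of 6.70 CPM on the left and 29.6 score units on the right.

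Genes that work with the members were counted by list. Over all genes tested, 7.31% rose and 6.86% fell in null against WT layer 6, and 42.2% rose and 43.4% fell in WT layer 5 against WT layer 6. These shares are given as background for each list count below. The lists were chosen with earlier results of these data known, so no list count is a test against them. Of 20 genes of CASK-binding proteins, 2 rose and 0 fell in null against WT layer 6, with a median log2 fold change of -0.03 beside 0.00 over all genes tested. That is 10% of the list called higher, where 7.31% of all genes were. Lin7a, which encodes a small PDZ adaptor held in a complex with CASK, rose by 0.21 ± 0.058 (edgeR adjusted p of 0.0291). Nrxn3, a presynaptic adhesion gene whose product binds CASK, rose by 0.15 ± 0.044 (edgeR adjusted p of 0.039). Neither was called with the paired libraries summed or without the low-Xist WT replicates. Tspyl2, singled out after its values were seen, encodes a nucleosome assembly protein reported to form a complex with CASK and TBR1, and averaged 31.6 ± 0.758 CPM in null against 33.0 ± 0.790 CPM in WT layer 6 (SD, n = 4 each), with an edgeR adjusted p of 0.381.

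In WT layer 5 against WT layer 6, 14 of the CASK-binding genes rose and 6 fell, with a median log2 fold change of 0.32, where 42.2% of all genes tested rose and 43.4% fell. The highest-ranked were the active zone scaffold genes Ppfia3 (2.12 ± 0.027) and Ppfia4 (2.53 ± 0.042) and Apba1, also called Mint1 (1.60 ± 0.023), on the log2 scale. Ppfia3 stood at 422 ± 9.35 CPM in WT layer 5 and 96.7 ± 2.65 CPM in WT layer 6 (n = 4 each).

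Most BAF complex genes were lower in WT layer 5, a comparison in which layer and batch go together and glial markers are higher. Of 26 subunit genes, 23 fell, 0 rose and 3 were not called in WT layer 5, where 43.4% of all genes fell. The median log2 fold change of the list was -0.45, beside -0.01 over all genes. Under upper-quartile scaling 20 fell and 1 rose. Smarce1, a DNA-binding subunit, fell by 1.38 ± 0.030 on the log2 scale. Dpf1 and Ss18l1, subunits of the neuronal form of the complex, fell by 1.06 ± 0.027 and 1.16 ± 0.030. In null against WT layer 6, 3 fell (11.5% of the list, beside 6.86% of all genes) and 0 rose, by small amounts. Smarca2, an alternative ATPase, had a log2 fold change of -0.19 ± 0.038, Smarcd3 one of -0.15 ± 0.028 and Dpf1 one of -0.10 ± 0.029, with edgeR adjusted p-values of 0.0043, 0.00343 and 0.0412. None of the 3 was called with the paired libraries summed.

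Of 16 genes of the NuRD and CtBP corepressors, which forkhead P proteins recruit, 1 rose and 1 fell in null against WT layer 6, with a median log2 fold change of 0.02. This is 6.25% in each direction, near the 7.31% higher and 6.86% lower among all genes, and 0 were called with the paired libraries summed. These were the helicase genes Chd4 (0.12 ± 0.030) and Chd3 (-0.14 ± 0.039), with edgeR adjusted p-values of 0.0176 and 0.0256. In WT layer 5 against WT layer 6, 5 rose and 10 fell, with a median of -0.23. Chd5, a neuronal NuRD helicase, stood at 517 ± 11.2 CPM in WT layer 5 and 154 ± 4.19 CPM in WT layer 6, and the deacetylase gene Hdac2 at 133 ± 3.11 and 314 ± 7.39 CPM (SD, n = 4 each). Mta2, another NuRD subunit, had a log2 fold change of -0.79 ± 0.027.

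Of 7 transcription factor genes whose products were reported to bind FOXP2, 3 fell and 0 rose in null against WT layer 6. Their median log2 fold change was 0.02, and 42.9% were called lower, beside 6.86% of all genes. With the paired libraries summed, 1 was called lower and 0 higher. Nr2f1 and Nr2f2 encode the nuclear receptors COUP-TF1 and COUP-TF2, which pattern cortical areas and migrating neurons. Nr2f1 averaged 88.7 ± 2.66 CPM in null against 125 ± 7.80 CPM in WT layer 6, and Nr2f2 averaged 21.2 ± 2.09 CPM in null against 35.0 ± 6.58 CPM in WT layer 6 (SD, n = 4 each). Their log2 fold changes were -0.49 ± 0.044 and -0.72 ± 0.12, and Sox5, a factor of deep-layer migration and identity, had one of -0.28 ± 0.076, with edgeR adjusted p-values of 7.59e-06, 0.0009 and 0.0247. The groups of Sox5 overlapped and those of Nr2f1 and Nr2f2 did not. COUP-TF2 is also made by cortical interneurons. Of 10 interneuron markers, 1 was higher and 3 were lower in null, with sums of 344 to 352 CPM in null against 363 to 383 CPM in WT layer 6, and their part in the Nr2f2 value was not tested. In WT layer 5 against WT layer 6, 6 of these factors fell and 1 rose, with a median of -0.86. Zmym2, a zinc-finger corepressor gene, had a log2 fold change of -0.86 ± 0.031 and Nr2f1 one of -0.74 ± 0.042.

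**Figure D5:**
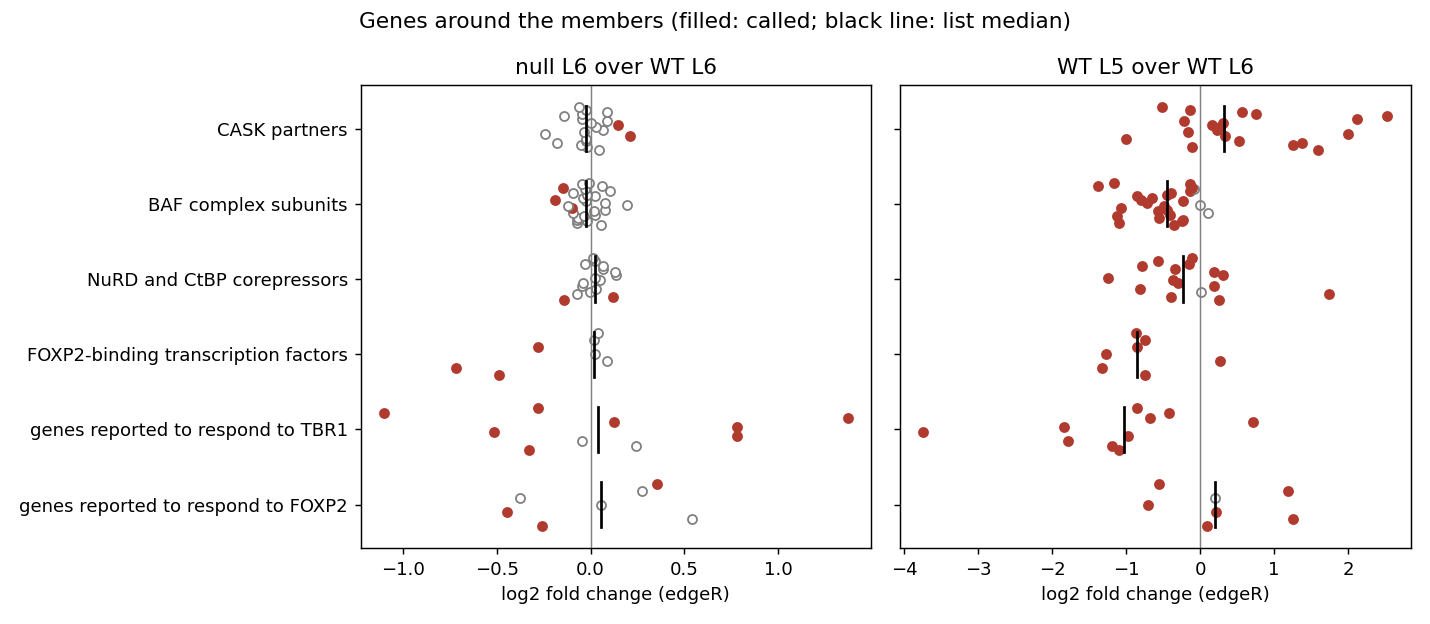
Log2 fold changes of the genes in 6 lists, for null over WT layer 6 (left) and WT layer 5 over WT layer 6 (right), on axes of different range. Filled points were called, open points were not, and black lines are list medians. The median of BAF complex genes is -0.03 on the left and -0.45 on the right.

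Genes reported to respond to TBR1 split by direction. Of 10, 4 rose and 4 fell in null against WT layer 6, with a median log2 fold change of 0.04. That is 40% in each direction, beside 7.31% higher and 6.86% lower among all genes. Sox5, named above, is in this list too, so its fall is counted in each of these lists. Bcl11b, named below as a relative of Bcl11a, is also in this list. With the paired libraries summed, 3 of the list were called in each direction. The adhesion gene Cdh8 averaged 187 ± 7.75 CPM in null against 108 ± 3.67 CPM in WT layer 6 (SD, n = 4 each), a log2 fold change of 0.78 ± 0.037 (edgeR adjusted p of 3.17e-08). Fezf2, the layer 5 selector gene, rose by 0.78 ± 0.039, and Reln, the gene of the secreted protein reelin, fell by 1.10 ± 0.047. In WT layer 5 against WT layer 6, 1 rose and 9 fell, with a median of -1.03, the lowest adjusted p-values being those of the axonal adhesion gene Cntn2 (-3.74 ± 0.025), the factor gene Bhlhe22 (-1.79 ± 0.029) and Fezf2 (-1.84 ± 0.043).

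Of 7 genes reported to respond to FOXP2, 1 rose and 2 fell in null against WT layer 6. Their median log2 fold change was 0.06, with 14.3% called higher and 28.6% lower, beside 7.31% and 6.86% of all genes. With the paired libraries summed, 1 was called lower and 0 higher. Mef2c, a transcription factor gene known to limit synapse number, averaged 687 ± 27.7 CPM in null against 936 ± 67.3 CPM in WT layer 6 (SD, n = 4 each). Its log2 fold change was -0.45 ± 0.047, that of the neurexin-like gene Cntnap2 was -0.26 ± 0.034, and that of the reelin receptor gene Vldlr was 0.35 ± 0.049, with edgeR adjusted p-values of 2.87e-05, 0.000196 and 0.000265. In WT layer 5 against WT layer 6, 4 rose and 2 fell, with a median of 0.20. Vldlr and the receptor tyrosine kinase gene Met fell by 0.56 ± 0.027 and 0.70 ± 0.039, and Disc1, a scaffold gene, stood at 3.69 ± 0.709 CPM in WT layer 5 against 1.53 ± 0.264 CPM in WT layer 6.

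Among the closest relatives of TBR1 and BCL11A, Eomes, also called Tbr2 and a marker of intermediate progenitors, was not called between null and WT layer 6, with a log2 fold change of -0.01 ± 0.046. Bcl11b, also called Ctip2, averaged 280 ± 31.6 CPM in null against 236 ± 21.4 CPM in WT layer 6 (SD, n = 4 each), with an edgeR adjusted p of 0.0552. Both were lower in WT layer 5, Eomes at 4.83 ± 0.346 against 49.9 ± 0.551 CPM and Bcl11b at 104 ± 1.17 against 236 ± 21.4 CPM in WT layer 6. The third relative, Tbx21, did not pass the filter on low counts.

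Likeness to each member was measured as the root mean square difference in log2 CPM over the 12 libraries, each gene centred on its own mean, among 11090 genes. Since the profiles carry the group differences, likeness describes the order of groups and says nothing of shared control. Tbr1 had few close neighbours, the nearest being Abca8a, a transporter gene, at 0.14, the KIT ligand gene Kitl at 0.17 and the histone gene Hist1h2ad at 0.18. The mean of Kitl was 104 CPM in the null layer 6 libraries, 48.6 in those of WT layer 5 and 165 in those of WT layer 6. Hist1h2ad belongs to a family of near-identical copies, so its count is uncertain. Foxp2 was matched most closely by Prkar2b, a regulatory subunit gene of protein kinase A, at 0.05, and by the growth factor gene Pdgfc and the postsynaptic adhesion gene Lrrtm2. The mean of Prkar2b was 230.0 CPM in the null layer 6 libraries, 161 in those of WT layer 5 and 336 in those of WT layer 6.

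Bcl11a was nearest to Lmnb1, which encodes lamin B1, followed by Abracl and Lnp, at 0.05 each. The mean of Lmnb1 was 160.1 CPM in the null layer 6 libraries, 56.4 in those of WT layer 5 and 147 in those of WT layer 6. The genes nearest to Foxp1 were Hnrnpd, an RNA-binding protein gene, the amino acid transporter gene Slc6a15 and Spata13. The mean of Slc6a15 was 182 CPM in the null layer 6 libraries, 164 in those of WT layer 5 and 138 in those of WT layer 6. Foxp4 was nearest to Mogs, a glucosidase gene, the neurexophilin gene Nxph1 and Dpf1, which is also a BAF subunit gene named above. Cask, whose profile is nearly flat, had 1097 genes within a difference of 0.1, led by Ube3c, Nudcd3 and Dip2b, against 0 genes for Tbr1 and 3 for Foxp2.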

How the data were processed

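RNA of 12 libraries of sorted neurons was analysed, with groups taken from the sample titles. The authors deposited raw counts of reads for each gene. The submitters' processing notes name STAR 2.5.2b, HTSeq and the build mm9. A further table that the authors deposited gives normalized scores, rounded to whole numbers, for 14567 genes, with a median of 23 in each column. How these were normalized, and the annotation and strand setting behind the counts, the sources used here do not give. Scores were used with a pseudocount of 1 for the sign and size of differences only. All 12 columns of each table were matched to samples by title. Peak lists were not used, because their coordinates are in mm9 and the annotation at hand is GRCm38.p6.

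Tests used edgeR 4.0.16 under R 4.3.3 (TMM, filterByExpr by group, quasi-likelihood test, each pair of groups fitted alone), with DESeq2 1.42.0 as an alternative. Printed CPM were scaled by TMM over all 12 libraries. Counting precision is set by totals of 27465597 to 54899002 counts, and the member with the fewest counts, Foxp2, had at least 344. Counts were also simulated on null and WT layer 6 (14588 genes). Of the genes given changes of 1.25-, 1.5-, 2- and 4-fold, edgeR called 58%, 80%, 84% and 100%, and 8 unchanged genes were called. The simulated libraries were drawn independently, without the close pairs or the sex difference of the real ones. These rates may therefore not hold for the real libraries. Names of genes came from the count table, and promoters from RefSeq (GRCm38.p6), where 4 of 6 members matched by symbol.

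The members and lists were chosen with earlier results of these data known, and the promoter motifs after the sequences had been seen. Genes named in the text were the 6 members, the 3 genes most like each (mean of at least 5 CPM, log2 CPM with a prior count of 2, predicted genes left out), and from each list, up to 3 called genes by rank of adjusted p. A gene that this rule names is not reported here.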

Additional observations from a re-analysis of the deposited data

How the results depend on the processing

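Alternatives were other scalings, DESeq2, no filter, the replicate number as a block, 1 fit for all groups, paired libraries summed, each library left out, the low-Xist WT layer 6 libraries left out, each layer 5 batch alone and the authors' scores. Among the tested values of the members, 7 passed the threshold anew (6 of Bcl11a and 1 of Foxp4, all between null and WT layer 6) and 1 lost it. Some values stayed on their side of the threshold but changed in size: without the low-Xist libraries, Bcl11a was 0.07 and Foxp4 -0.08 between null and WT layer 6, and under upper-quartile scaling Cask was 0.21 between the WT layers. Genes called between null and WT layer 6 numbered 2068, and 479 with paired libraries summed (2 against 2), of which 478 were among the 2068. There Tbr1, Foxp1 and Foxp2 kept their calls, at adjusted p-values of 0.00149, 0.0241 and 0.0343 (edgeR). With each library left out, 1632 to 1838 genes were called.

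Bcl11a between null and WT layer 6, at 0.18 (edgeR adjusted p of 0.0523), was called under upper-quartile scaling (0.18, adjusted p of 0.0445), with no filter (0.18, adjusted p of 0.0473), in 1 fit for all groups (0.18, adjusted p of 0.0185) and by DESeq2 (0.18, adjusted p of 0.014). Its values with 1 library left out ran from 0.14 to 0.23, and those of Foxp4 from -0.16 to -0.11. Over all tests run, the adjusted p ranged up to 0.394 for Bcl11a and 0.41 for Foxp4. Foxp1 between null layer 6 and WT layer 5, at 0.14, was 0.048 and not called under upper-quartile scaling, and -0.01, the reverse sign, in the authors' scores. That scaling moved the median gene by -0.09 in this comparison and by 0.09 between the layers.

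In the authors' scores, on log2 of the score plus 1, other values moved. Between WT layer 5 and WT layer 6 they were -1.87 for Tbr1, 0.03 for Cask and 0.41 for Foxp1. Between null layer 6 and WT layer 5 they were 0.95 for Tbr1, -0.094 for Cask, 1.51 for Bcl11a and 0.61 for Foxp2. The cause was not tested.

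Replicate numbers did not pair the libraries: deviations of same-numbered null and WT layer 6 libraries correlated at -0.08 to -0.06 over genes. The fit with the replicate number as a block called 1526 genes between null and WT layer 6, 12675 between the WT layers and 12551 between null layer 6 and WT layer 5, and it changed no call of a member. Layer 5 libraries of either batch alone gave the same calls for all 6 members. Batch B holds replicates 1 and 2 and batch C replicates 3 and 4, so each close pair (1 with 3, 2 with 4) spans both. The match between batches therefore cannot be read as an independent repeat. The planned count of TBR1 peaks at the members, with its alternative window and threshold, was not run. Depth limits Foxp2 most, at 344 to 1572 counts.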
